A study of Mus musculus with 12 samples.

Results

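Amino acid shortage and activation of the transcription factor ATF4 change a well-known set of genes. Here, 36 of them were followed in mouse bone marrow derived macrophages (BMDMs), chosen as a list of serine, asparagine and other amino acid synthesis enzymes, amino acid transporters, tRNA synthetases and ATF4 stress genes. All 36 were found by symbol among the 54232 genes of the count table, and all passed the filter of at least 10 counts in at least 2 libraries, as did 16281 genes in all. BMDMs from C57BL/6 WT mice had been in culture for 5 days. Per the study's methods, BMDMs came from mice 6 to 8 weeks old and were grown in RPMI with serum and M-CSF. They were then kept with no tumor-conditioned medium (NS) or with tumor-conditioned medium (TCM) from 1 of 2 tumor cell lines. Per the labels, MYCN is amplified in the first, the mouse neuroblastoma line NB9464, and not in the second, NBT3L. Each of these 3 conditions was used without and with 500 nM R788 (fostamatinib), an inhibitor of the tyrosine kinase Syk, for 24 h, which gave 6 groups of 2 libraries. Poly(A)-selected RNA was sequenced, and the deposited values were counts of reads per gene. Per the study's methods, NB9464 cells conditioned serum-free DMEM for 48 h. The preparation of NBT3L TCM, the vehicle of R788, the time in TCM before R788, and whether NS cells stayed in the growth medium for the 24 h are not given in the sources used here. The part of the tumor cells and the part of the base medium and its amino acids therefore cannot be told apart in any comparison of media. Nothing says whether the 2 libraries of a group came from separate mice or cultures, so the tests measure the spread between these libraries, which may be technical.

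When a cell runs short of an amino acid, uncharged tRNA activates the kinase GCN2, which phosphorylates the translation factor eIF2α. General translation falls, whereas the mRNA of ATF4 is translated more, and ATF4 with C/EBP partners binds C/EBP-ATF response elements near genes for amino acid synthesis, import and tRNA charging. Other eIF2α kinases, among them PERK of the unfolded protein response, converge on the same factor. ATF4 is controlled largely in translation, so its mRNA is a limited guide to its activity. Activated macrophages draw on serine, glycine and cysteine for one-carbon units and glutathione.

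Total counts ran from 44977847 to 56449685 per library. The R788 library SJ8 had the highest total and counts in 16149 genes, against 17275 to 18343 in the other 11, so the counts for R788 against NS are given with and without it. The 9 macrophage markers summed to between 33934 and 48407 CPM (counts scaled to an equal total per library) and the 14 neuroblastoma markers to between 3.32 and 10.03 CPM, with 2 of the 14 at 0 in all libraries and, of the 8 tested, 3 called higher in NB9464 TCM than in NS and 5 in NBT3L TCM. The 8 proliferation genes fell from 1661 and 1718 CPM in NS to between 336 and 447 CPM in the 8 libraries with TCM. The 11 interferon response genes stood at 1427 CPM in both NS libraries, at 495 to 497 in NB9464 TCM, at 754 to 757 in NBT3L TCM, at 322 to 348 in R788, and at 125 to 176 in the 4 libraries with TCM and R788. The part of these differences in the results that follow was not tested. In bulk RNA, fewer cells of a kind and less RNA per cell cannot be told apart. Strand use in counting is not given in the sources used here, so exons shared with other genes limit a few members: 27.8% of the merged exons of Slc6a9 lie opposite Ccdc24, which had at most 2 counts, and 10.4% of Psph opposite Cct6a. Likewise, 14.3% of Aars is shared on the same strand with Exosc6, which had 0 counts, 4.11% of Atf5 lies opposite Nup62, and 3.97% of Ddit3 opposite Mars.

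The promoters of the members held the core of the C/EBP-ATF response element in a larger share than promoters at large. RefSeq windows on GRCm38.p6, from 250 bases before to 50 after each start, were given for 30 of the 36 members. The others were Cth, Slc7a5, Slc1a5, Wars, Nars and Lars. The core, TGATGNAA on either strand, was in a window of 10 of these 30 genes (33.3%), and in 1219 of all 27025 genes with a window (4.51%). The longer form TGATGNAAT, which contains the core, was in 5 (16.7%) against 293 (1.08%). The stretches around 6 of the matches are shown as examples, chosen after their values were seen, so that the core can be read on both strands and in genes of different roles. Capitals mark the core, which reads TTNCATCA where it lies on the other strand, and each sequence runs 5′ to 3′ on the strand of its gene. They lie at chr2:119351023-119351082 on the plus strand for Chac1, and on the minus strand at chr6:7693199-7693258 for Asns, chr2:152344031-152344072 for Trib3, chr11:120643818-120643877 for Pycr1, chr7:126625547-126625606 for Nupr1 and chr11:20332684-20332743 for Slc1a4.
Chac1: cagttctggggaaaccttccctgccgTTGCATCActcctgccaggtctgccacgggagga
Asns: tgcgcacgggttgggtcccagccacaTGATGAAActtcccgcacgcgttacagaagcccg
Trib3: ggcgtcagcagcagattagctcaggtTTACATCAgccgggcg
Pycr1: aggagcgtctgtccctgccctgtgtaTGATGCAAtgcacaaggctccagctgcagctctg
Nupr1: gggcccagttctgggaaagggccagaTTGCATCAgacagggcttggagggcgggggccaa
Slc1a4: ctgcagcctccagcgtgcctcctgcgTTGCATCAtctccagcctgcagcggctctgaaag
The first base of the core stood at position -193 in Chac1, -23 in Asns, 15 in Trib3, -103 in Pycr1, -110 in Nupr1 and -4 in Slc1a4, counted from the start as 1 with no position 0. Aars, which holds it at -112 and at 10, Gars at -30, Iars at 8 and Vldlr at -200 were the other 4. A match is a description of these letters and not a site of binding. The members were chosen as amino acid response and ATF4 stress genes, and the 27025 genes were not limited to those expressed here. The larger share is therefore not independent of that choice.

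As a whole, the members took 0.333% of all counts in each NS library. Their share was 0.392% and 0.388% in NB9464 TCM, 0.274% and 0.273% in NBT3L TCM, and 0.405% and 0.420% in R788. It stood at 0.382% and 0.386% in NB9464 TCM + R788 and at 0.266% and 0.264% in NBT3L TCM + R788. The 4 NBT3L TCM libraries were thus the lowest, below both NS libraries, the R788 libraries the highest, and no 2 of the 6 groups overlapped. By group means, R788 was the highest group for 15 members, NB9464 TCM for 10 and NB9464 TCM + R788 for 8. NBT3L TCM + R788 was the lowest for 16 and NBT3L TCM for 10. Such counts are not given for all genes, so this order is not shown to be particular to the members. In TPM, which corrects counts for gene length and depth, levels in NS ranged from 445 ± 10 (SD, n = 2) for Slc3a2, the heavy chain of several amino acid exchangers, to 0.146 ± 0.036 for Vldlr. Atf4 was the second of the 36 at 374 ± 14 TPM, Nars the third at 289 ± 11 TPM and Chac1 the 29th at 11.01 ± 1.18 TPM. In NBT3L TCM, Atf4 stood at 210 ± 7.6 TPM and Chac1 at 0.403 ± 0.155 TPM.

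**Figure D1:**
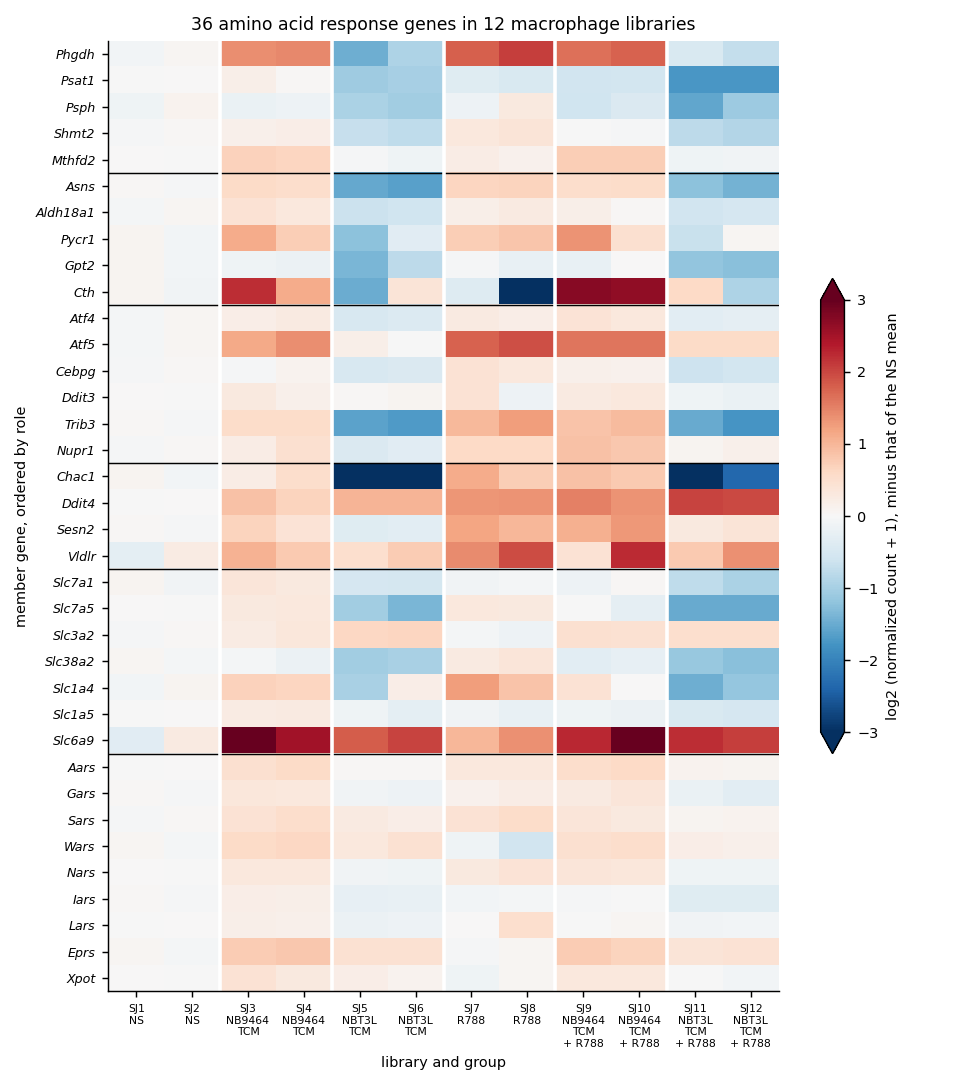
Level of the 36 members (rows, ordered by role) in the 12 libraries (columns, by group), as log2 of the normalized count + 1 minus that of the NS mean; red is higher and blue lower than NS, and colors end at 3. The Chac1, Asns and Trib3 rows are blue in all 4 NBT3L TCM libraries, and Phgdh, Atf5 and Sesn2 are red in NB9464 TCM, R788 and NB9464 TCM + R788.

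Most members differed between the conditioned media. In NB9464 TCM against NBT3L TCM, 29 of the 36 members were called higher and 1, Slc3a2, lower, where called means a DESeq2 adjusted p under 0.05. Of all 16281 genes, 3.69% were called higher and 5.72% lower. The members were chosen with earlier results of these data known, so their distance from these shares is not independent of that choice. The median log2 fold change of the members was 0.78, against -0.0014 over all genes tested, and it was 0.84 in the 10 members with the promoter core and 0.83 in the 20 without. These 2 medians were 0.535 and 0.346 in NB9464 TCM against NS, and -0.325 and -0.387 in NBT3L TCM against NS. In R788 against NS they were 0.723 and 0.23. The difference between the 2 sets was not tested. Those called higher between the TCMs were 5 of 5 serine and one-carbon enzymes, 4 of 5 enzymes of other amino acids, 5 of 6 transcription factors and regulators, 2 of 4 stress effectors, 5 of 7 transporters and 8 of 9 genes of tRNA charging and export. In the accounts by role that follow, log2 fold changes are NB9464 TCM over NBT3L TCM with their SE unless another comparison is named. The comparisons with NS share the NS libraries and those between TCMs share the TCM libraries, so these are not independent of each other.

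Serine synthesis from a glycolytic intermediate runs through Phgdh, Psat1 and Psph, and Shmt2 and Mthfd2 carry its carbon into the mitochondrial folate pool. Phgdh (chr3:98313170-98339990, GRCm38), the first and committed enzyme, had 648 and 713 in NS, 1779 and 1837 in NB9464 TCM, 248 and 360.3 in NBT3L TCM, 2347 and 2861 in R788, 2158 and 2313 in NB9464 TCM + R788, and 498 and 412 in NBT3L TCM + R788 (normalized counts, as for all genes below). The NBT3L TCM libraries were the lowest, followed by NBT3L TCM + R788 and NS, and those with R788 and no TCM were the highest, above both NB9464 TCM groups. Its log2 fold change between the TCMs was 2.57 ± 0.17 (DESeq2 adjusted p = 1.62e-50). Against NS it was 1.41 ± 0.16 in NB9464 TCM and -1.16 ± 0.17 in NBT3L TCM, so the call had opposite signs in the 2 media. Psat1 (chr19:15904678-15947337), the second enzyme, had 4621 and 4684 in NS, 5245 and 4756 in NB9464 TCM, 2212 and 2343 in NBT3L TCM, 3597 and 3362 in R788, 3134 and 3150.1 in NB9464 TCM + R788, and 1384 and 1396 in NBT3L TCM + R788. Here, NB9464 TCM stood just above NS, with a log2 fold change against NS of 0.10 ± 0.081 that was not called (DESeq2 adjusted p = 0.364), and every group with R788 lay below its group without it. Between the TCMs, Psat1 differed by 1.13 ± 0.083. Psph, Shmt2 and Mthfd2 were also called higher, by 0.81 ± 0.21, 0.90 ± 0.072 and 0.75 ± 0.062. Mthfd2 was 10610 and 10294 in NB9464 TCM against 6612 and 6517 in NS and 6402 and 6017 in NBT3L TCM, while Shmt2 was 2842 and 2707 in NBT3L TCM against 4497 and 4654 in NS. Psph, at 664 and 686 in NB9464 TCM and 397 and 371 in NBT3L TCM, lost its call without SJ6 (log2 fold change 0.76, adjusted p = 0.0689).

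Among enzymes of other amino acids, Asns (chr6:7675169-7693254), which makes asparagine from aspartate and glutamine, had 3041 and 2885 in NS, 4398 and 4256 in NB9464 TCM, 1025 and 954 in NBT3L TCM, 4618 and 4693 in R788, 4294 and 4372 in NB9464 TCM + R788, and 1263 and 1115 in NBT3L TCM + R788. The 4 NBT3L TCM libraries reached at most 1263 and every other library at least 2885. Its log2 fold change was 2.13 ± 0.09 (DESeq2 adjusted p = 2.1e-120), with 0.55 ± 0.085 for NB9464 TCM and -1.58 ± 0.09 for NBT3L TCM against NS. Cth, the cystathionine gamma-lyase that releases cysteine, was barely expressed. It had 13.2 and 11.4 in NS, 60.3 and 27.9 in NB9464 TCM, 3.71 and 16.2 in NBT3L TCM, 9.09 and 0 in R788, 86.5 and 83.3 in NB9464 TCM + R788, and 19.1 and 6.03 in NBT3L TCM + R788. The 4 NB9464 TCM libraries were above the other 8, but the 2 libraries of several groups lay far apart. The fit gave a log2 fold change of 2.13 ± 1.03 with no adjusted p, since DESeq2 filtered it out for low counts in this comparison. Aldh18a1 and Pycr1, the enzymes from glutamate to proline, were called higher by 0.99 ± 0.10 and 1.69 ± 0.51. Pycr1, at 130.1 and 100.3 in NB9464 TCM and 24.8 and 46.5 in NBT3L TCM, lost its call without SJ3 (adjusted p = 0.197), SJ4 (0.0506) or SJ5 (0.255). Gpt2, the mitochondrial alanine transaminase, had 868 and 839.8 in NB9464 TCM and 368 and 549.7 in NBT3L TCM, a difference of 0.89 ± 0.19. Both groups lay below the 997 and 892 of NS, and the fall was called only for NBT3L TCM, at -1.04 ± 0.19 against -0.15 ± 0.19 in NB9464 TCM.

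Of the transcription factors and regulators, Atf4 (chr15:80255184-80257541) itself had 13269 and 14447 in NS, 15982 and 16621 in NB9464 TCM, 9959.5 and 10494 in NBT3L TCM, 16611 and 15992 in R788, 18399.5 and 17386 in NB9464 TCM + R788, and 11142 and 11515 in NBT3L TCM + R788. In normalized counts, the 4 NBT3L TCM libraries were below both NS libraries, and the other 6 above them. In TPM, Atf4 was 369 ± 3.2 in NB9464 TCM against 374 ± 14 in NS, so its rise there depended on the scaling. It was 465 ± 2.2 TPM in R788 and 385 ± 2.3 TPM in NB9464 TCM + R788. Atf4 mRNA was higher in NB9464 TCM by 0.67 ± 0.061 (DESeq2 adjusted p = 1.37e-25), a smaller difference than those of Asns, Phgdh or Trib3. Trib3 (chr2:152337422-152344032), a pseudokinase that binds ATF4, had 789.9 and 750 in NS, 1120.1 and 1125 in NB9464 TCM, 252 and 235 in NBT3L TCM, 1505 and 1828 in R788, 1389 and 1484 in NB9464 TCM + R788, and 270.4 and 224 in NBT3L TCM + R788. The NBT3L TCM groups, without and with R788, lay within 224 to 270.4, far below the rest, and the log2 fold change was 2.21 ± 0.16. Atf5 (chr7:44812256-44816658), a relative of ATF4 whose mRNA is likewise under translational control, had 1833 and 1991 in NS, 4194 and 5009.8 in NB9464 TCM, 2166 and 1884 in NBT3L TCM, 6489 and 7296 in R788, 5864 and 5855 in NB9464 TCM + R788, and 2857 and 2851 in NBT3L TCM + R788. NS and NBT3L TCM overlapped, and both NB9464 TCM libraries lay above them, with a log2 fold change of 1.19 ± 0.10 between the TCMs and 0.082 ± 0.10 for NBT3L TCM against NS. Cebpg, a dimer partner of ATF4, and Nupr1, a stress-induced chromatin protein, were called higher by 0.50 ± 0.091 and 0.74 ± 0.13. Ddit3, which encodes CHOP, stood at 1107 and 1001 in NB9464 TCM and 922 and 959.8 in NBT3L TCM, and its difference of 0.16 ± 0.17 was not called (95% interval -0.17 to 0.50).

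The widest range was that of a stress effector, Chac1 (chr2:119351229-119354381), a glutathione-degrading enzyme. Its values were 299.6 and 266 in NS, 329 and 411 in NB9464 TCM, 9.9 and 17.3 in NBT3L TCM, 613 and 475 in R788, 521 and 484 in NB9464 TCM + R788, and 33.9 and 54.3 in NBT3L TCM + R788. The NBT3L TCM libraries were the lowest by far, those of NBT3L TCM + R788 reached at most 54.3, and the other 8 were at least 265.5. The log2 fold change between the TCMs was 4.75 ± 0.39, or 26.8-fold (DESeq2 adjusted p = 5.68e-31). Against NS it was -4.36 ± 0.39 in NBT3L TCM, whereas the 0.39 ± 0.27 in NB9464 TCM was not called. Sesn2, the leucine-binding inhibitor of mTORC1 signaling, had 1137 and 1079 in NS, 1767 and 1469 in NB9464 TCM, 865 and 892 in NBT3L TCM, 2538 and 2196 in R788, 2304 and 2725 in NB9464 TCM + R788, and 1354 and 1453 in NBT3L TCM + R788. Each group with R788 lay above its group without it, and NB9464 TCM was above NBT3L TCM by 0.88 ± 0.13. Ddit4, another inhibitor of mTORC1, followed a different order, with 308 and 305 in NBT3L TCM and 276 and 241 in NB9464 TCM against 148 and 153 in NS. It rose against NS in both media, by 0.78 ± 0.21 in NB9464 TCM and 1.03 ± 0.21 in NBT3L TCM, and their difference of -0.25 ± 0.21 was not called. Vldlr, a lipoprotein receptor listed as an ATF4 target, had few counts, between 18.8 and 112.2 in the 12 libraries, and its difference of 0.29 ± 0.66 was not called.

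**Figure D2:**
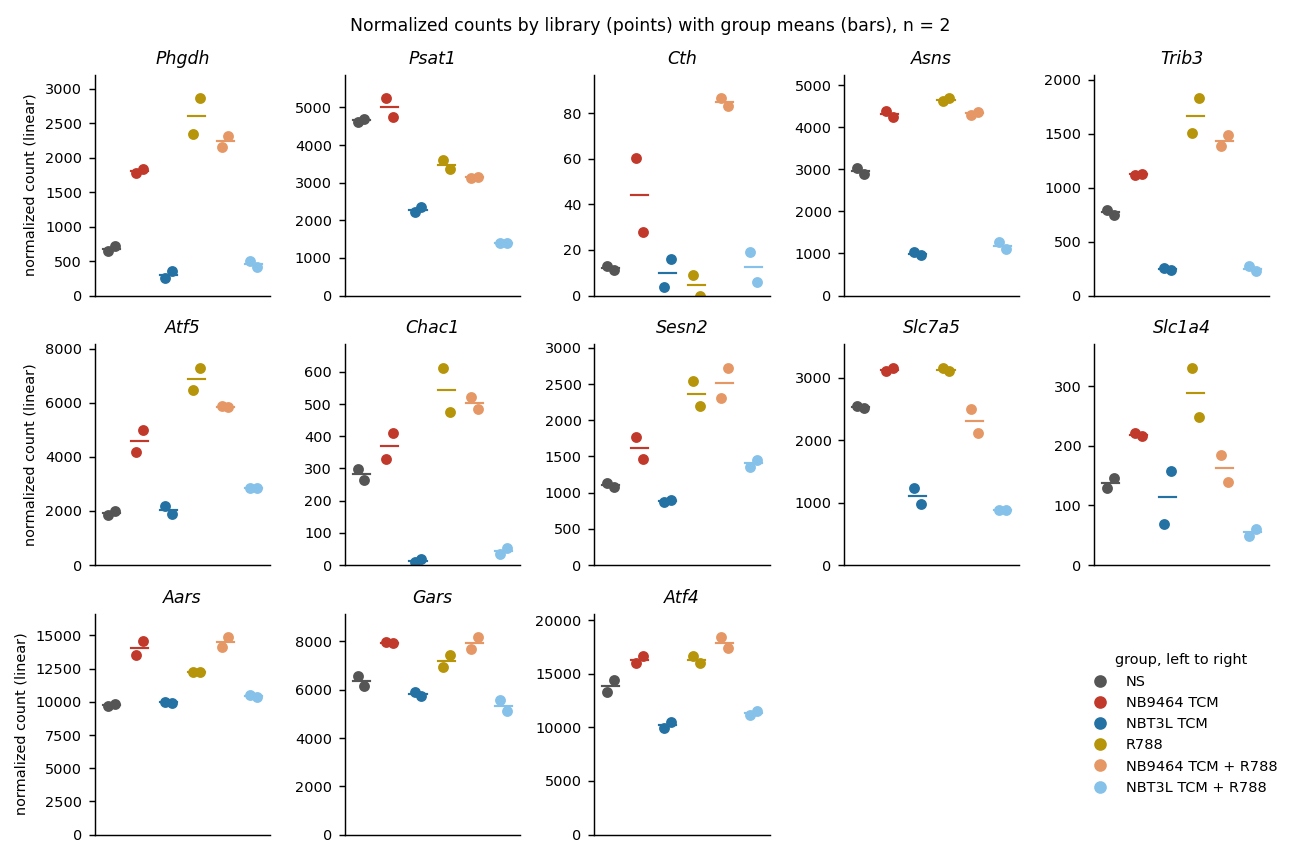
Normalized counts (linear axis from 0) of 13 members in each library (points) with the group mean (bar), n = 2 a group, groups from left to right as in the key. For Asns, Trib3 and Chac1, both NBT3L TCM groups sit below all the other groups, while Psat1 is lower in each group with R788 than in its group without.

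Amino acid transporters moved in both directions. Slc7a5 (chr8:121881150-121907694), the light chain of the LAT1 exchanger of leucine and other large neutral amino acids, had 2547 and 2518 in NS, 3109.7 and 3151 in NB9464 TCM, 1235 and 975 in NBT3L TCM, 3162 and 3105 in R788, 2505 and 2113 in NB9464 TCM + R788, and 881 and 882 in NBT3L TCM + R788. NBT3L TCM was below NS and NB9464 TCM above it, with a difference of 1.504 ± 0.12 between the TCMs (DESeq2 adjusted p = 3.74e-34). Slc3a2, the heavy chain that pairs with it, went the other way, at 38149.9 and 38816 in NBT3L TCM and 29439 and 31369.7 in NB9464 TCM against 23870.2 and 25435 in NS. It was the only member called lower in NB9464 TCM than in NBT3L TCM, by -0.34 ± 0.053. Slc1a4, an exchanger of alanine, serine and cysteine, had 129 and 146 in NS, 221 and 216 in NB9464 TCM, 69.3 and 158 in NBT3L TCM, 331 and 248 in R788, 185 and 139 in NB9464 TCM + R788, and 48.8 and 61.3 in NBT3L TCM + R788. The 2 NBT3L TCM libraries differed more than 2-fold from each other, and the difference of 0.94 ± 0.39 was not called (DESeq2 adjusted p = 0.0937) but was without SJ6 (1.66, adjusted p = 0.00585). Slc38a2, a sodium-coupled importer of neutral amino acids, and Slc7a1, an importer of arginine and lysine, were higher by 0.88 ± 0.073 and 0.85 ± 0.10, and both were called lower in NBT3L TCM than in NS, by -1.004 ± 0.073 and -0.52 ± 0.10. The glutamine exchanger Slc1a5 differed by 0.47 ± 0.094. Slc6a9, the glycine transporter GlyT1, was higher in both TCMs than in NS, at 699 and 479 in NB9464 TCM and 291 and 335 in NBT3L TCM against 64.8 and 99.6 in NS. Its log2 fold changes against NS were 2.84 ± 0.32 and 1.93 ± 0.32, and the difference between the TCMs, 0.91 ± 0.30, lost its call without SJ3 (0.61, adjusted p = 0.441), SJ5 (0.248) or SJ6 (0.102) and with edgeR (0.0572).

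The genes of tRNA charging and export showed small differences in 1 direction. Aars, the alanyl-tRNA synthetase, had 9651 and 9847 in NS, 13499 and 14562 in NB9464 TCM, 9988 and 9916 in NBT3L TCM, 12225 and 12229 in R788, 14145 and 14865 in NB9464 TCM + R788, and 10521 and 10385 in NBT3L TCM + R788. NS and NBT3L TCM lay within 9651 to 9988, and both NB9464 TCM groups lay above all the others, by 0.50 ± 0.057 between the TCMs (DESeq2 adjusted p = 2.44e-16). Gars, for glycine, had 6553 and 6152 in NS, 7991 and 7924 in NB9464 TCM, 5905 and 5751 in NBT3L TCM, 6950.1 and 7451 in R788, 7707 and 8174 in NB9464 TCM + R788, and 5569 and 5118 in NBT3L TCM + R788. The NBT3L TCM groups were lowest and the NB9464 TCM groups highest, with NS and R788 between them and a difference of 0.45 ± 0.071 between the TCMs. For the other synthetases called, the log2 fold changes were 0.43 ± 0.056 for Nars (asparagine), 0.41 ± 0.059 for Iars (isoleucine), 0.33 ± 0.065 for Eprs (glutamate and proline), 0.32 ± 0.11 for Lars (leucine) and 0.25 ± 0.064 for Sars (serine). Xpot, which exports tRNA from the nucleus, differed by 0.21 ± 0.075. Wars, for tryptophan, had 5105 and 5236 in NB9464 TCM and 4271 and 4702 in NBT3L TCM and was not called. The calls of 3 of these were fragile. Lars was lost without any 1 of the 4 libraries (adjusted p from 0.122 to 0.217), Xpot without SJ3 (0.466), SJ5 (0.104) or SJ6 (0.403), and Sars without SJ4 (0.0751) or SJ6 (0.0941), and edgeR called neither Lars (0.0768) nor Xpot (0.0811).

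Against NS, the members called were all higher in NB9464 TCM and mostly lower in NBT3L TCM. In NB9464 TCM, 24 of 36 were called higher and 0 lower, with a median log2 fold change of 0.37. No member fell at an unadjusted p under 0.05 either (0 of 36), and edgeR called 23 higher and 0 lower. The background was 17.2% of all genes higher and 16.9% lower. In NBT3L TCM, 6 were called higher and 17 lower, with a median of -0.28 and a background of 18.0% higher and 17.3% lower. The share called higher there, 16.7% of the members, was about that of all genes, and the share called lower was 47.2%. Those higher were Slc3a2, Slc6a9, Ddit4, Eprs, Sars and Wars, by 0.64 ± 0.053, 1.93 ± 0.32, 1.03 ± 0.21, 0.45 ± 0.065, 0.23 ± 0.064 and 0.39 ± 0.11. All 6 were also called higher in NB9464 TCM, where Eprs rose most of the synthetases, by 0.78 ± 0.065. The sign of some small changes depended on the scaling. In TPM, NB9464 TCM was not above NS for Shmt2 (88.9 against 93.7), Iars (80.2 against 84.0) or Atf4 (369 against 374). Likewise, Sars was 103 TPM in NBT3L TCM against 116 TPM in NS. Of the 17 lower in NBT3L TCM, Chac1, Trib3, Asns, Slc7a5 and Phgdh fell the most. In NB9464 TCM, 17 of the 24 calls were kept under every alternative setting other than a 2-fold minimum, and Slc7a1, Slc1a5, Nupr1, Shmt2, Slc7a5, Iars and Atf4 each lost theirs without at least 1 of SJ1 to SJ4, with adjusted p between 0.0522 and 0.31. In NBT3L TCM, 19 of 23 were kept, and Sars, Sesn2, Nupr1 and Wars were lost without at least 1 of SJ1, SJ2, SJ5 and SJ6, with adjusted p between 0.0527 and 0.189.

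The difference between the conditioned media was measured again in separate libraries that had R788 in both arms. There, 28 members were called higher in NB9464 TCM + R788 and 1, Ddit4, lower, with a median log2 fold change of 0.72. Of all genes, 3.53% were called higher and 6.09% lower. No library was shared with the comparison without R788. All 36 members had the same sign in both, and 26 were called higher in both, out of 31 called higher in either. Both comparisons came from 1 fit of the 12 libraries. Whether the arms with R788 had other mice, cultures or batches of TCM is not given, so the 2 may not be independent. Across the 36 genes, which are not independent replicates and whose values in a comparison come from the same 4 libraries, Pearson's r of the log2 fold changes was 0.942 and Spearman's rho 0.924. Neither this overlap nor these correlations are given for all genes, so the agreement is not shown to be particular to the members. Chac1 differed by 3.51 ± 0.30 with R788 against 4.75 ± 0.39 without, Trib3 by 2.54 ± 0.16 against 2.21 ± 0.16, Phgdh by 2.30 ± 0.16 against 2.57 ± 0.17, and Asns by 1.87 ± 0.088 against 2.13 ± 0.09. Lars, Pycr1 and Slc6a9 were called higher without R788 alone, and Slc1a4 (1.56 ± 0.40) and Wars (0.33 ± 0.11) with R788 alone. Whether the difference itself changed with R788 was tested as an interaction, which DESeq2 called for 1 member, Slc3a2, at 0.29 ± 0.075 (adjusted p = 0.0236), and edgeR for 0. Its libraries held 34223 and 33572 in NB9464 TCM + R788 and 35126 and 35139 in NBT3L TCM + R788. DESeq2 and edgeR each called 0 members lower, with 3 at an unadjusted p under 0.05, and the background was 0.283% higher and 0.424% lower. Slc3a2 lost the call without SJ3, SJ5, SJ6, SJ9, SJ10, SJ11 or SJ12 (adjusted p from 0.107 to 0.251). For Chac1 the interaction was -1.24 ± 0.50 (95% interval -2.21 to -0.26) and was not called (DESeq2 adjusted p = 0.391). With R788, 6 calls were lost without 1 of SJ9 to SJ12, those of Sars, Psph, Slc1a5, Ddit4, Slc1a4 and Wars, with adjusted p between 0.0613 and 0.296.

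**Figure D3:**
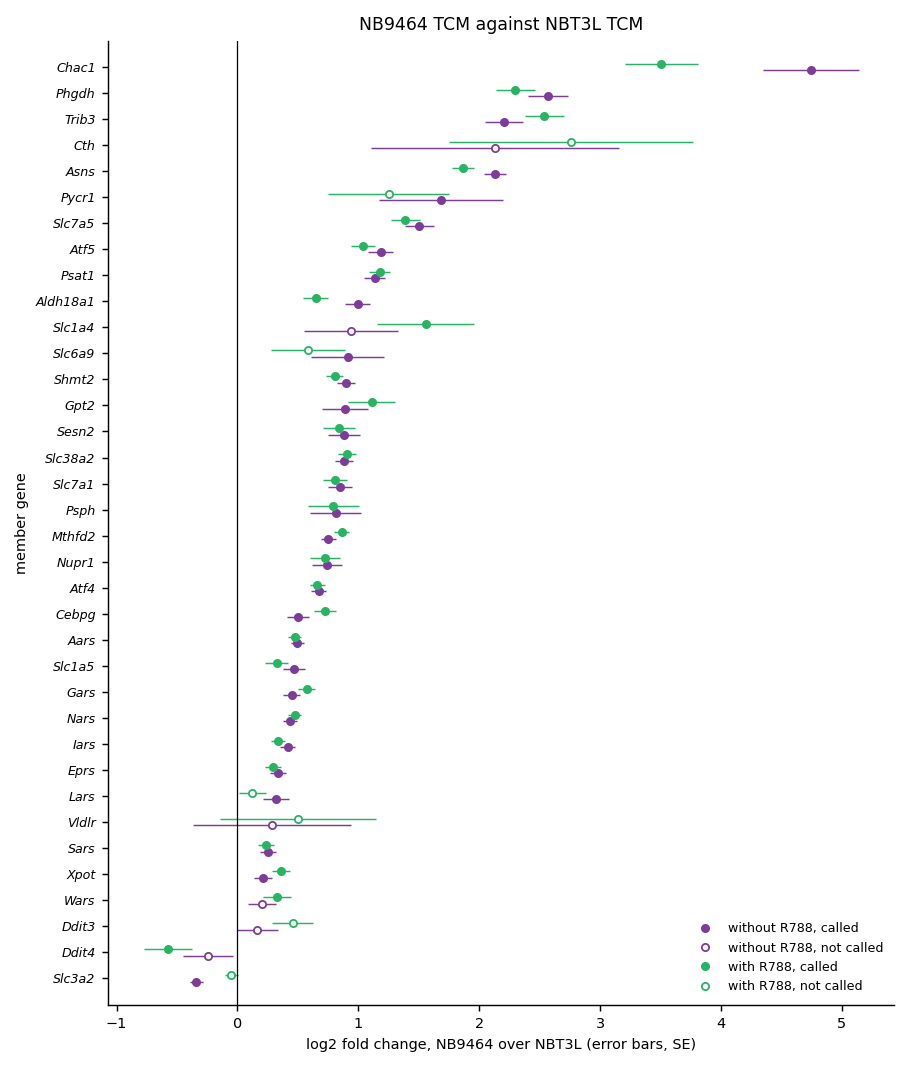
Log2 fold change of NB9464 TCM over NBT3L TCM (x axis, error bars SE) for each member without and with R788; filled points were called by DESeq2 at an adjusted p under 0.05. In both series nearly all points lie to the right of 0, with Chac1 the farthest at 4.75 and 3.51, and Slc3a2 and Ddit4 to the left.

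Most of the stress genes were higher with R788 in cells without TCM. Against NS, 22 members were called higher and 2, Psat1 and Wars, lower, with a median log2 fold change of 0.31. The background was 11.6% higher and 15.0% lower. Without SJ8 the count was 19 higher and 1 lower, without SJ7 it was 18 higher and 4 lower, and edgeR called 17 higher and 2 lower. All 4 stress effectors were higher, by 1.76 ± 0.66 for Vldlr, 1.34 ± 0.21 for Ddit4, 1.09 ± 0.13 for Sesn2 and 0.94 ± 0.27 for Chac1, and 3 of the 4, all but Vldlr, without SJ8. Of the 6 transcription factors and regulators, 5 were higher, led by Atf5 at 1.85 ± 0.10 (DESeq2 adjusted p = 1.46e-71) and Trib3 at 1.115 ± 0.15. Without SJ8 all 6 were, with Ddit3 at 0.43 (adjusted p = 0.019). Phgdh rose by 1.94 ± 0.16, Asns by 0.65 ± 0.085 and Sars by 0.49 ± 0.064, whereas Psat1, the enzyme after Phgdh, fell by 0.42 on the log2 scale (SE 0.082). Atf4 mRNA rose by 0.23 ± 0.061. Wars was 3135 and 2289.8 in R788 against 3563 and 3274 in NS. It is known as an interferon-induced gene, and all 11 of the interferon response genes were called lower in R788, with and without SJ8, where they summed to 322 and 348 CPM against 1427 in NS. In NB9464 TCM, all 11 were also called lower than in NS, while Wars was called higher there, at 5105 and 5236. The part of the interferon response in the fall of Wars with R788 was not tested. The fall of Wars was -0.33 ± 0.11 and -0.13 without SJ8 (adjusted p = 0.32), and the rise of Lars was 0.27 ± 0.11 and 0.011 without SJ8 (0.936). SJ8 held 7743 counts of Lars and SJ7 5539.6. In all, 10 calls were lost without 1 of SJ1, SJ2, SJ7 and SJ8, those of Chac1, Slc6a9, Gars, Mthfd2, Slc7a5, Slc1a4, Wars, Atf4, Lars and Vldlr, with adjusted p from 0.0576 to 0.936.

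Within conditioned medium, fewer members were called with R788. In NB9464 TCM, 5 were called higher and 7 lower, with a median of 0.016, against 5.79% and 8.70% of all genes. In NBT3L TCM, 7 were called higher and 3 lower, with a median of -0.039, against 5.33% and 7.24%. The direction in NBT3L TCM was not stable, with 6 higher and 9 lower in a fit of only the libraries compared and 7 and 6 with a minimum mean of 50 counts. Sesn2, Ddit4, Atf5 and Nupr1 were higher in each of the 3 media. For Sesn2 the log2 fold changes were 1.09 ± 0.13 without TCM, 0.64 ± 0.13 with NB9464 TCM and 0.68 ± 0.13 with NBT3L TCM. For Ddit4 they were 1.34 ± 0.21, 0.66 ± 0.20 and 0.98 ± 0.20, and the highest counts of Ddit4 in any library were the 617 and 596 of NBT3L TCM + R788. Psat1 was lower in all 3 media, by -0.42 ± 0.082, -0.67 ± 0.082 and -0.71 ± 0.087. Slc7a1 and Slc1a5 were called lower in both TCMs. Chac1 rose in NBT3L TCM, from 9.9 and 17.3 to 33.9 and 54.3 (1.68 ± 0.42, DESeq2 adjusted p = 0.000917), and stayed below the level of NS, and in NB9464 TCM its 0.44 ± 0.26 was not called. These counts depended on single libraries. In NB9464 TCM, 12 members were called in all, but 5 without SJ3 (2 higher, 3 lower), 5 without SJ9 (1 and 4) and 7 without SJ10 (3 and 4). In NBT3L TCM, 10 were called, but 5 without SJ5 (3 higher, 2 lower) and 6 without SJ12 (5 and 1). In NB9464 TCM the calls of Psat1, Slc1a5 and Sesn2 were kept under every alternative setting other than a 2-fold minimum, and in NBT3L TCM those of Psat1, Sesn2, Ddit4 and Atf5.

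**Figure D4:**
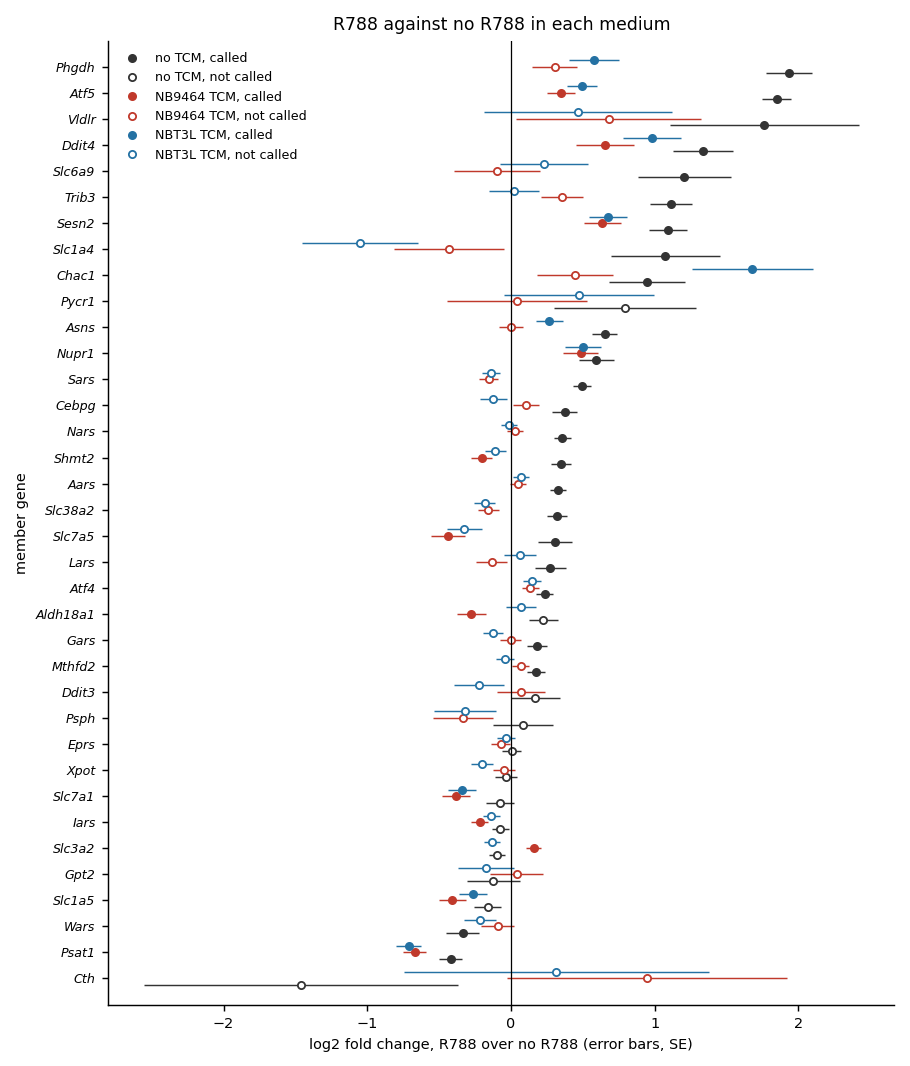
Log2 fold change of R788 over no R788 (x axis, error bars SE) for each member in cells without TCM and in those with NB9464 TCM or NBT3L TCM; filled points were called at an adjusted p under 0.05. Phgdh, Atf5, Trib3 and Asns lie farther right without TCM than in either TCM, Psat1 lies left of 0 in all 3, and Cth without TCM has the widest error.

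The effect of R788 was itself lower in the presence of TCM for a part of the members. The interaction of NB9464 TCM with R788 was called negative for 13 members and positive for 1, Slc3a2 (0.25 ± 0.075), against 6.26% and 6.22% of all genes, with a median of -0.37 over the members. For NBT3L TCM it was called negative for 13 and positive for 0, against 4.96% and 5.17%, with a median of -0.31. No member was positive at an unadjusted p under 0.05 there, and edgeR also called 0. These interactions share the R788 and NS libraries. Without SJ8 they were called negative for 13 and 14 members and positive for 1 and 0. Without SJ7 they were positive for 3 and 2. Among the members called in both, Phgdh stood at -1.63 ± 0.22 in NB9464 TCM and -1.36 ± 0.23 in NBT3L TCM. Atf5 had -1.50 ± 0.14 and -1.35 ± 0.14, Trib3 -0.76 ± 0.21 and -1.09 ± 0.23, Slc7a5 -0.75 ± 0.16 and -0.63 ± 0.17, and Sars -0.65 ± 0.09 and -0.63 ± 0.09. In the libraries without R788, Phgdh, Atf5, Trib3, Asns and Sars stood above NS in NB9464 TCM. In NBT3L TCM without R788, Phgdh, Trib3 and Asns stood below NS and Sars above it, while the Atf5 libraries overlapped those of NS. The interactions of Sesn2 and Ddit4 were not called with either medium, with DESeq2 adjusted p of 0.0689 and 0.13 for Sesn2 and 0.0959 and 0.5 for Ddit4. That of Sesn2 with NB9464 TCM was called without SJ4 (0.0272), SJ8 (0.0285) or SJ10 (0.0388) and with a minimum mean of 50 counts (0.0443). For Sesn2 the values were -0.46 ± 0.18 (95% interval -0.82 to -0.10) and -0.42 ± 0.19 (-0.78 to -0.054), and for Ddit4 -0.68 ± 0.29 (-1.25 to -0.11) and -0.35 ± 0.29 (-0.92 to 0.21).

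Other genes of the same pathways, listed together with the members, did not all move in 1 direction between the TCMs. Of all genes, 3.69% were called higher and 5.72% lower in that comparison. Of 12 other cytosolic tRNA synthetases, 7 were called higher in NB9464 TCM than in NBT3L TCM, with a median log2 fold change of 0.25. Mars, Cars and Yars, for methionine, cysteine and tyrosine, had the largest differences, at 0.86 ± 0.079, 0.77 ± 0.077 and 0.70 ± 0.083. Of 17 mitochondrial synthetases, 2 were called higher, with a median of 0.12. Of 14 other genes linked to ATF4, 5 were higher and 2 lower, with a median of 0.30. With R788 in both arms, 3 were higher and 3 lower (median 0.069), against 3.53% and 6.09% of all genes. Against NS, 9 were higher and 2 lower in NB9464 TCM, with a median of 0.80, against 17.2% and 16.9% of all genes. In NBT3L TCM, 9 were higher than in NS and 1 lower, against 18.0% and 17.3% of all genes. Their median there was 0.66, whereas that of the members was -0.28. Between the TCMs, Pck2, the mitochondrial PEP carboxykinase, differed by 1.66 ± 0.10, Jdp2, a bZIP factor, by 0.84 ± 0.10 and Gdf15, a stress cytokine, by 0.73 ± 0.13. Of 15 other amino acid transporters, 4 were lower, led by Slc7a8 at -0.79 ± 0.055, the arginine transporter Slc7a2 at -0.53 ± 0.12 and Slc15a3 at -0.38 ± 0.059. Of 10 genes of the folate cycle and serine catabolism, 2 were lower, among them Tyms, which makes thymidylate for DNA synthesis, at -0.45 ± 0.10, and 1 of the 8 proliferation genes was called lower in the same comparison. Of 8 eIF2 kinases and phosphatase subunits, 1 was higher, Ppp1r15b at 0.37 ± 0.076, and 1 lower, Eif2ak2, an interferon-induced kinase, at -0.35 ± 0.091, while all 11 interferon response genes were called lower.

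The IRE1 and ATF6 branch of the unfolded protein response, which makes chaperones of the endoplasmic reticulum, did not follow the order of the members. Against NS, 13 of its 15 genes were called higher in NB9464 TCM and 12 in NBT3L TCM, with medians of 0.70 and 0.90. The shares of all genes called higher were 17.2% and 18.0%. Between the TCMs, 3 were higher and 7 lower in NB9464 TCM, with a median of -0.12. Herpud1 differed by 0.55 ± 0.095, Calr by -0.38 ± 0.044 and Creld2 by -0.35 ± 0.073. With R788 and no TCM, 3 were called higher and 9 lower than in NS, against 11.6% and 15.0% of all genes. The median of the 15 was -0.37, and the changes were led by Herpud1 at 0.98 ± 0.097, Calr at -0.80 ± 0.045 and Sdf2l1 at -0.73 ± 0.084. Without SJ8, 3 were higher and 10 lower, with a median of -0.36. The members had a median of 0.31 in that comparison. In the other genes linked to ATF4, R788 without TCM went with 8 higher and 2 lower of 14, with and without SJ8, among them the cystine transporter Slc7a11 at 1.65 ± 0.086 and Atf3 at -1.12 ± 0.065. No list was tested against another, and the members and lists were chosen with earlier results of these data known. These counts and medians are therefore descriptions.

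**Figure D5:**
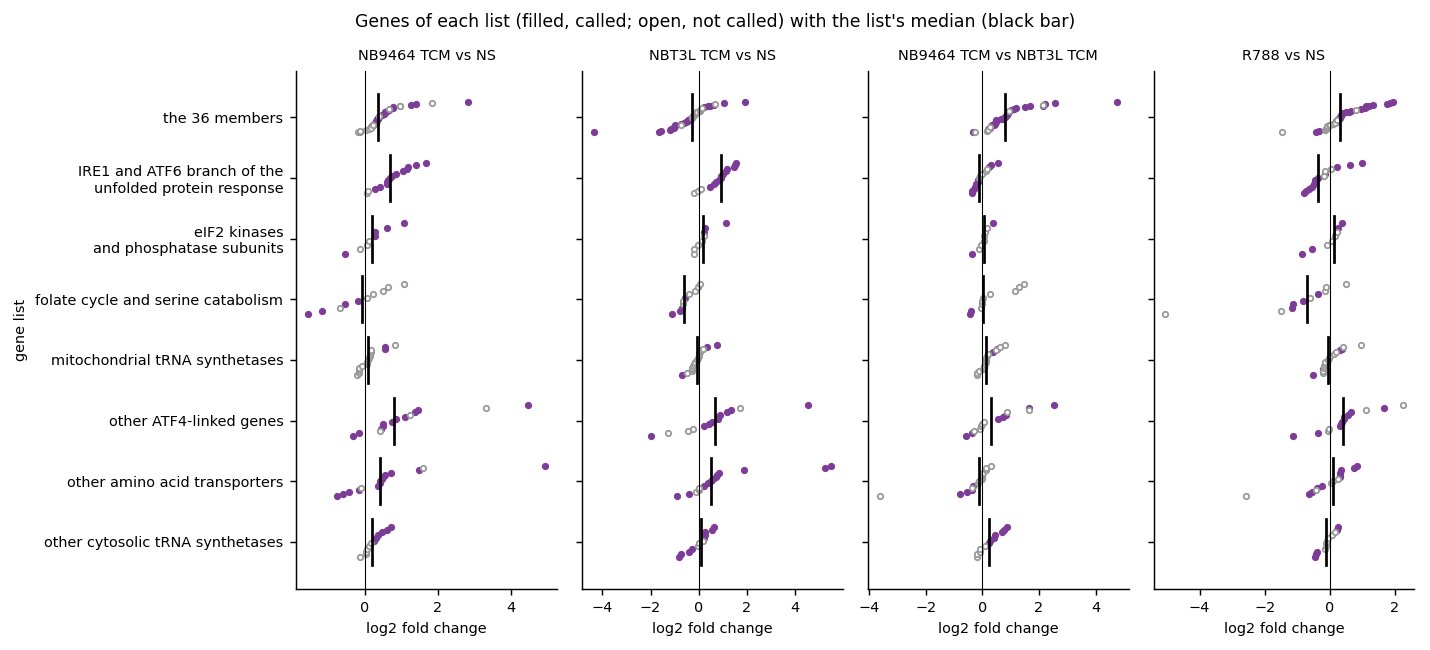
Log2 fold change of each gene (points; filled, called; open, not called) in the 36 members and 7 other gene lists, with the median of each list (black bar), in 4 comparisons with an x axis of its own each. The members' median is 0.78 in NB9464 TCM against NBT3L TCM, where that of the IRE1 and ATF6 branch is -0.12, and in R788 against NS the medians are 0.31 and -0.37.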

How the data were processed

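The authors deposited counts of reads per Ensembl gene as whole numbers, with a gene length and no scaling by depth or length, for 12 libraries. Per the study's methods, reads were mapped to mm10 with STAR and quantified with Salmon. The submitters' processing notes name STAR 2.6.1d, Salmon 1.4.0, SAMtools 1.9, Picard 2.26 and MultiQC 1.11. Whether the whole numbers are rounded Salmon estimates, and how multi-mapping reads were treated, is not given in the sources used here. The labels give paired reads and 2 libraries a group, the methods single reads in triplicate. Groups came from the sample titles, whose SJ numbers name the libraries. Symbols, positions and exon overlaps were taken from GENCODE M21 on GRCm38.

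Genes that reached 10 counts in 2 or more libraries were fitted with DESeq2 1.42.0 in R 4.3.3 (median-of-ratios size factors, 6 group means over the 12 libraries, two-sided Wald tests, unshrunken log2 fold changes, Benjamini-Hochberg adjustment over all genes tested within each comparison). Called means an adjusted p under 0.05, and an adjusted p that DESeq2 left missing was kept missing. Normalized counts are counts divided by the size factors, and errors are SE of the fit or SD between 2 libraries. Depth was 44977847 to 56449685 counts. The fit was tested on simulated data. Alternatives were edgeR 4.0.16 (quasi-likelihood, TMM), TMM within DESeq2, other filters, a 2-fold minimum, fits of the compared libraries only, halved counts, and leaving out each library.

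The members and lists were chosen with earlier results of these data known. Every member could be named. Those shown with all 12 values were, per role, the 2 with the largest absolute log2 fold change between the TCMs, and Atf4. Of each other list, up to 3 called genes with the largest changes between the TCMs, or with R788, and a mean of at least 50 normalized counts were named.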

Additional observations from a re-analysis of the deposited data

Results flagged for a closer look

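The effect of R788 differed between media, by a DESeq2 interaction test with adjusted p under 0.05, for the members given here. All values are differences of log2 fold changes. For NB9464 TCM against no TCM, the values were -1.63 for Phgdh, -1.51 for Slc1a4, -1.50 for Atf5, -1.30 for Slc6a9, -0.76 for Trib3, -0.75 for Slc7a5, -0.65 for Asns and -0.65 for Sars. They were -0.55 for Shmt2, -0.50 for Aldh18a1, -0.48 for Slc38a2, -0.33 for Nars, -0.28 for Aars and 0.25 for Slc3a2. For NBT3L TCM against no TCM, they were -2.12 for Slc1a4, -1.36 for Phgdh, -1.35 for Atf5, -1.09 for Trib3, -0.63 for Slc7a5, -0.63 for Sars and -0.50 for Slc38a2. They were -0.49 for Cebpg, -0.46 for Shmt2, -0.39 for Asns, -0.37 for Nars, -0.31 for Gars and -0.26 for Aars. Between the TCMs, the effect on Slc3a2 differed by 0.29.

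Of the 14 interactions with NB9464 TCM, 9 kept their call under every alternative setting other than a 2-fold minimum, and 8 of the 13 with NBT3L TCM did. Slc6a9, Aars, Slc1a4, Slc3a2 and Aldh18a1 in NB9464 TCM, and Asns, Gars, Aars, Slc7a5 and Slc1a4 in NBT3L TCM, lost it without at least 1 of the libraries compared. Slc1a4 in NB9464 TCM was lost without SJ1, SJ2, SJ3, SJ4, SJ7, SJ9 or SJ10, with adjusted p from 0.0535 to 0.163. Aars in NBT3L TCM was lost without SJ1, SJ2, SJ5, SJ6, SJ11 or SJ12, with adjusted p from 0.0541 to 0.109. Groups of 2 libraries are too small for a test of outlying libraries.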

How the results depend on the processing

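No paired analysis was possible because the groups share no replicate numbers. Of the 360 pairs of a member and a comparison, 180 were called, 90 changed their call under at least 1 alternative other than a 2-fold minimum, and none changed sign while called. With a minimum of 2-fold, the members called fell to 3 and 10 for NB9464 TCM and NBT3L TCM against NS, 8 and 9 between the TCMs without and with R788, and 8 for R788 against NS, 0 within NB9464 TCM and 1 within NBT3L TCM. The interactions fell to 4 with each TCM and 0 between them. Leaving out 1 library gave 5 to 9 members for R788 in NB9464 TCM, 5 to 8 in NBT3L TCM, and 0 to 1 for the interaction between the TCMs, which edgeR put at 0. Other totals of higher and lower calls together stayed within 1.5 times of those reported, but not each direction. For R788 in NBT3L TCM, 3 lower became 9 in a fit of only the libraries compared and 6 with a mean of at least 50 counts, and for R788 against NS 2 lower became 4 without SJ7 and 1 without SJ1, without SJ8 or with only the libraries compared. The 1 lower call between the TCMs with R788, Ddit4, became 0 with edgeR, halved counts, only the libraries compared, or without SJ9, SJ10, SJ11 or SJ12. Counts by role and list without SJ8 were added after seeing the data. Over the 360 pairs, edgeR lost 22 calls and gained 0. TMM scaling gained 3 and lost 1, fits of only the libraries compared gained 11 and lost 13, halved counts gained 2 and lost 3, the filter on a mean of 50 counts gained 8 and left out 1 member, and no filter changed none. The share of promoters with the motif went from 33.3% to 16.7% with the longer form. TMM moved the median of all genes by less than 0.1 on the log2 scale. Groups of 2 libraries limit the power for members with few counts, such as Cth, Vldlr, Pycr1 and Slc1a4.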
